A study of Mus musculus with 14 samples.

Results

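DNase-seq of mouse liver was compared between 90 min and 240 min after a single injection of growth hormone (GH) into males without a pituitary. The members were the accessible regions of 4 libraries, 2 taken at 90 min and 2 at 240 min. Peaks of the 4 per-library lists were merged where they shared at least 1 bp, which gave 33029 regions, against 48248 regions from all 14 libraries of the series. All 4 libraries came from CD-1 (ICR) males aged 7 weeks that the supplier had hypophysectomized (hypox), so every animal of both groups also lacked the other pituitary hormones. Both groups had received recombinant rat GH intraperitoneally at 125 ng per g body weight, and livers were collected 90 min or 240 min later. The libraries used for orientation were 2 of hypox males 30 min after the same dose, 2 of untreated hypox males, 2 of untreated hypox females and 4 of intact females. Each library was a pool of DNase-released fragments from 3 livers, except 1 hypox female pool of 2, so differences between single animals are averaged within a pool. The protocol also mentions a vehicle injection, but no label ties it to a library, so untreated means without GH here, and no vehicle group matched to either time was used. The labels give no clock time of injection or collection, and time after GH and time of day cannot be told apart.

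Growth hormone binds its receptor on hepatocytes and activates the kinase JAK2, which phosphorylates the transcription factor STAT5b. Phosphorylated STAT5 enters the nucleus, binds the palindrome TTCNNNGAA and activates genes such as Igf1 and Socs2. In male rodents GH is released in pulses, and hepatic STAT5 is active after each pulse and inactive between pulses. SOCS proteins, CIS (encoded by Cish) and phosphatases shut the signal down. DNase I cuts DNA where nucleosomes are displaced, so a peak of released fragments marks an accessible enhancer or promoter.

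The 8 windows of 120 bp below surround the summits of regions with a call or a higher pileup at 90 min, and capitals mark matches to TTCNNNGAA. They were chosen because these regions lead their class or belong to Igf1 and Bcl6, which are direct targets of STAT5. Only windows that hold the palindrome were taken, so its presence in all 8 was fixed by the choice. Letters are the plus strand of mm9, read 5′ to 3′.
Deptor, chr15:55029644-55029763: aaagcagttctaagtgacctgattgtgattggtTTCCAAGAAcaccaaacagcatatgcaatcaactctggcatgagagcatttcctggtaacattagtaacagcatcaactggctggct
Slc22a23, chr13:34320052-34320171: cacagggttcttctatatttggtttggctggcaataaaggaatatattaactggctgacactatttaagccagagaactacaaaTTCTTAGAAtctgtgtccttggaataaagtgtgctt
Trit1, chr4:122704151-122704270: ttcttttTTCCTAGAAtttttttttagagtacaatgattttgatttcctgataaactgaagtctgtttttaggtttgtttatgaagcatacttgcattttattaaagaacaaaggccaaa
Usp40, chr1:89920832-89920951: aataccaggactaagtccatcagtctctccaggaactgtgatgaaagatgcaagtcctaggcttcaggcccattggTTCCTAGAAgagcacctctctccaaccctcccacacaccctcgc
Cpne8, chr15:90509082-90509201: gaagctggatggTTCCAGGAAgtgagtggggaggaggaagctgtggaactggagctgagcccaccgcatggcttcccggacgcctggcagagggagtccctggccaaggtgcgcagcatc
Igf1, chr10:87328542-87328661: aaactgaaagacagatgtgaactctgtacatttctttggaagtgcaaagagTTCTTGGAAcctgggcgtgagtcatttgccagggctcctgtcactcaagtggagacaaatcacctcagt
Igf1, chr10:87364825-87364944: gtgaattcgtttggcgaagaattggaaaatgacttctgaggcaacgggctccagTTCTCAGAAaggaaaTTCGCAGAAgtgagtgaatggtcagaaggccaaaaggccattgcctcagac
Bcl6, chr16:23981391-23981510: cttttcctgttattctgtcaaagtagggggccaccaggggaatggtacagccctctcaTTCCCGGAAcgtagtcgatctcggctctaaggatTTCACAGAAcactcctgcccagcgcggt

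The 4 windows below belong to regions with a call or a higher pileup at 240 min. Capitals mark ATTGAT or its reverse complement ATCAAT, a core of the binding sequence of HNF6 (Onecut1), a liver-enriched homeodomain factor whose sites are also bound by CUX2. They are shown because this sequence was more frequent at 240 min, and only windows that hold it were taken.
Ptprf, chr4:117900118-117900237: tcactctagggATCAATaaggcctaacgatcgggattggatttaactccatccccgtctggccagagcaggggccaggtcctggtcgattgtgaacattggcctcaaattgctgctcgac
Pctp, chr11:89862031-89862150: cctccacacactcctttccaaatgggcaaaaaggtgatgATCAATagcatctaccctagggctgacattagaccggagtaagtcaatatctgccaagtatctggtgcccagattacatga
Phyh, chr2:4859161-4859280: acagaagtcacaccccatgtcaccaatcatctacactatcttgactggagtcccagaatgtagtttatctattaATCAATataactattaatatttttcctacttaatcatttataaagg
Krt18, chr15:101857021-101857140: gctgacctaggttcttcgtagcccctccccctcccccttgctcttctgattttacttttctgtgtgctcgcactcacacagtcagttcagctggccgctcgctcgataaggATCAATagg

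The 4 libraries held 13813596 to 17174839 tags. Their lists held 25054 and 20964 peaks at 90 min and 28080 and 18882 peaks at 240 min. All 4 libraries had 63 to 75 peaks on the Y chromosome, as male liver should. Levels are given as depth-scaled pileup, the number of extended tags over a summit per 1000000 tags of the library. Hepatocyte genes were open in all 4, among them the promoter of albumin (Alb), with a depth-scaled pileup of 6.52 and 7.89 at 90 min and 10.4 and 6.28 at 240 min. Of the marker lists of other liver cells, 7 of 8 endothelial, 1 of 8 Kupffer cell, 3 of 8 stellate, 3 of 8 lymphocyte and 2 of 6 cholangiocyte genes had a linked region. Fewer open cells and less opening per cell cannot be told apart in such pools. The pools of 240 min were not alike. Pool 1 at 240 min had the longest list and the highest pileup, with a median of 3.19 over the regions called in all 4 libraries. The medians were 2.33 and 2.14 in the 90 min pools and 1.91 in 240 min pool 2. Pool 1 at 240 min also held 5143 regions that no other of the 4 libraries called, against 391 in pool 2. Several results that rest on either 240 min pool are therefore given with and without it, and the others use all 4 libraries only.

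Most regions called in both pools of a time were called at the other time as well. Of the 33029 regions, 14702 (44.5%) had a peak in all 4 libraries. A further 1305 regions (3.95%) had a peak in both 90 min pools and in no 240 min pool, and 1188 (3.6%) had a peak in both 240 min pools and in no 90 min pool. These classes are called 90 min-only and 240 min-only below. No test belongs to these counts, since no exact test of 2 against 2 libraries can reach 0.05. Without 240 min pool 1 the 90 min-only class held 3627 regions, and without 90 min pool 2 it held 4094. Without 240 min pool 2 the 240 min-only class held 6361 regions, and without 90 min pool 1 the classes held 2119 and 2483. A region without a call was not detected at that depth against its local background and need not have been closed.

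Both classes lay mostly outside promoters. Introns held 43.9% of the 90 min-only and 40.8% of the 240 min-only summits, and intergenic sequence held 38.1% and 43%. Promoters (starts with 1000 bp to each side) held 15.1% and 13.1%, against 46.5% of the regions called in all 4 libraries. The median GC content was 45% and 48% against 53.5%.

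The 90 min-only regions with the highest fold enrichment over local background were led by an intron of Deptor, which encodes an inhibitor of the kinase mTOR. This region, chr15:55029295-55030088, reached 8.04 and 8.96 in the 90 min pools and 4.8 and 2.63 in the 30 min pools. It had no call in either 240 min pool or either untreated hypox male pool, and the authors' fold was 15.65 ± 0.44 (SD, n = 2). An intron of Slc22a23, a member of the organic ion transporter family, followed with 6.46 and 7.83 at 90 min and 5.74 and 4.12 at 30 min. Both regions hold the STAT palindromes printed above.

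The next leaders kept this pattern. Trit1, a tRNA-modifying enzyme, had an intronic region at 4.48 and 4.15 at 90 min and 4 and 1.79 at 30 min. Il1r1, the interleukin 1 receptor, had an intronic region at 3.78 and 3.88 at 90 min and 4.4 and 2.09 at 30 min. A region 15.5 kb from the carboxylesterase gene Ces3b reached 2.5 and 2.41 at 90 min and 4.4 and 1.91 at 30 min. The 8 leading regions, which also lay near Ino80d, 5430427O19Rik and the ubiquitin protease gene Usp40, all had calls in both 30 min libraries and lacked calls in the untreated hypox males. The STAT palindrome was within 200 bp at the summit in 7 of them, and the region near Ino80d was the exception.

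The 240 min-only regions were led by one 61.0 kb from Mycn, a MYC-family transcription factor. It reached 4.78 and 2.25 at 240 min, 2.7 and 1.99 in the untreated hypox male pools and 1.73 in 1 of the 2 pools of 30 min. An intron of Ptprf, a receptor tyrosine phosphatase, had 4.85 and 2.32 at 240 min and 1.55 and 0.742 in untreated males. An intron of Pctp, a phosphatidylcholine transfer protein, had 4.34 and 2.87 at 240 min and 1.89 and 0.92 in untreated males. In both genes pool 1 stood above pool 2, as it did in all 8 leaders.

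The other leaders of this class lay in Il22ra1 (an interleukin 22 receptor subunit), Casr (the calcium-sensing receptor), Atf6 (a sensor of endoplasmic reticulum stress), Ank3 and AI317395. All 8 regions were called in both untreated hypox male pools and in all 4 intact female pools. Among these leaders only those in Ptprf and Pctp held the HNF6 core near the summit. The authors' fold was 13.86 ± 4.09 (SD, n = 2) for the Mycn region, a wider spread than in the 90 min leaders.

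**Figure D1:**
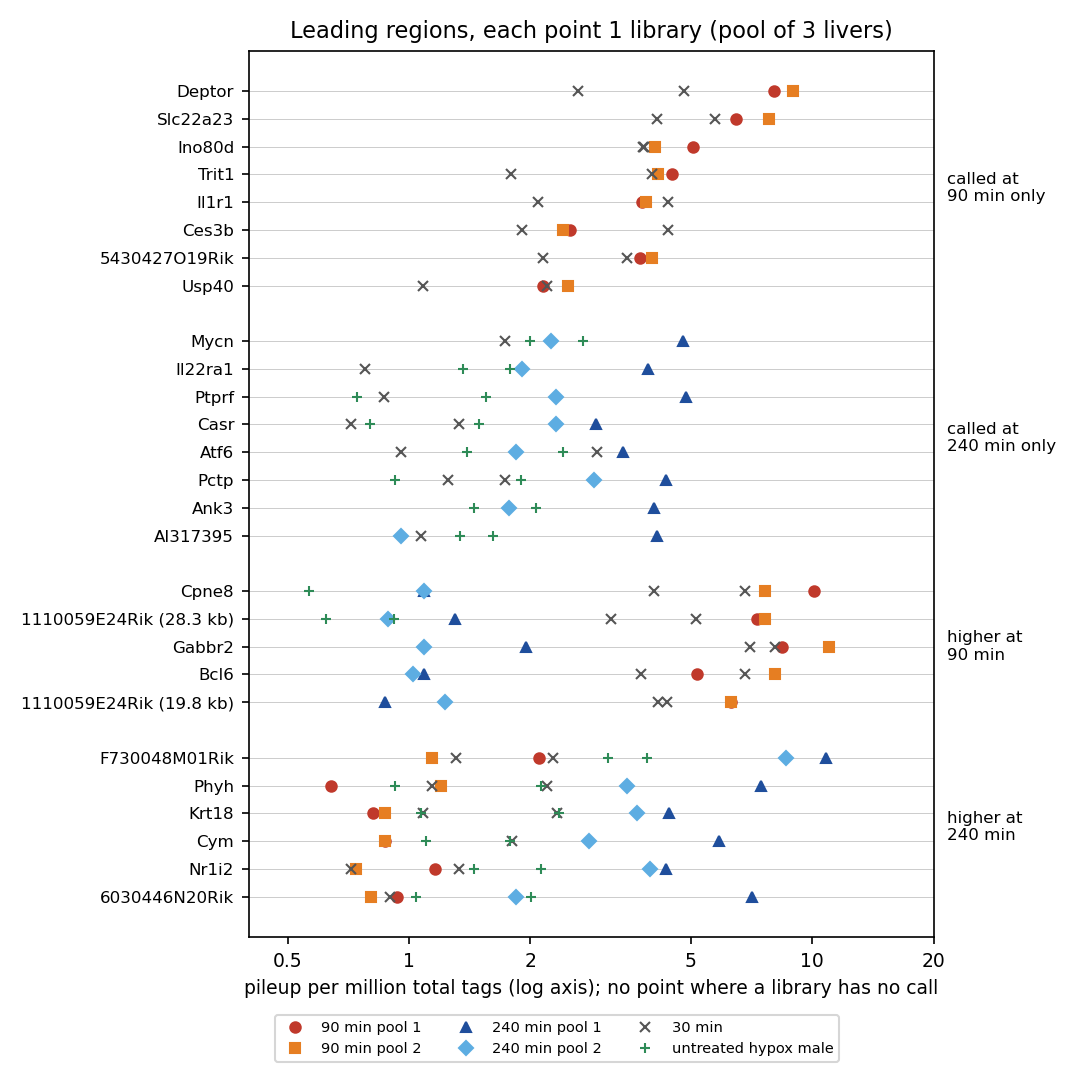
Depth-scaled pileup, per 1000000 tags (x axis, log scale) of the leading regions, named by the gene that holds the summit or by the nearest start. Each symbol is 1 library, and a missing symbol means no call. The 8 regions called at 90 min only have 30 min values and no untreated hypox male values, whereas the 8 called at 240 min only have values in both untreated hypox male pools.

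The 10 libraries that did not choose the classes separated them. Of the 90 min-only regions, 50.4% had a call in both 30 min libraries, and 68.7% had none in the untreated hypox males. For the 240 min-only regions these shares were 14.6% and 22.1%. Over all 33029 regions they were 52.5% and 24.7%. The 30 min share of the 90 min-only class was thus near that of all regions. The same held for the share of the 240 min-only class without untreated calls. Conversely, both untreated hypox male pools called 52.6% of the 240 min-only regions and 15.7% of the 90 min-only regions. All 4 intact female pools called 45.8% of the 240 min-only and 7.59% of the 90 min-only regions. Over all regions, both untreated hypox male pools called 60.7% and all 4 intact female pools 38.9%. The 90 min-only class thus lay further from all regions in both shares. Intact female pool 3 had fewer calls, with 63.7% of the regions called in all 4 GH libraries against 92.1% to 96.9% in the other intact female pools. Of the regions called in all 4 GH libraries, 91.5% were found in both 30 min libraries and 93% in both libraries of untreated hypox males.

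The 90 min-only class thus held 475 regions (36.4%) with calls in both 30 min pools and in no untreated hypox male pool. The 240 min-only class held 12 such regions (1.01%). The reverse pattern, called in both untreated hypox male pools and in no 30 min pool, was found in 249 (21%) of the 240 min-only and 41 (3.14%) of the 90 min-only regions. Over all regions the first pattern was found in 4.62% and the reverse pattern in 6.76%. The share of 36.4% became 42.6% when only peaks with −log10 p of at least 10 counted. It was 16.1% without 90 min pool 2 and 20% without 240 min pool 1. The untreated hypox male libraries carry another library code in their titles, and code and GH treatment cannot be told apart there. The untreated hypox females share the code of the GH libraries. Neither of their pools called 63.1% of the 90 min-only, 37.6% of the 240 min-only and 28.8% of all regions. These 2 pools differed. Pool 1 called 8.74% of the 90 min-only, 32.3% of the 240 min-only and 50% of all regions, and pool 2 called 35.2%, 54.9% and 68.9%.

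**Figure D2:**
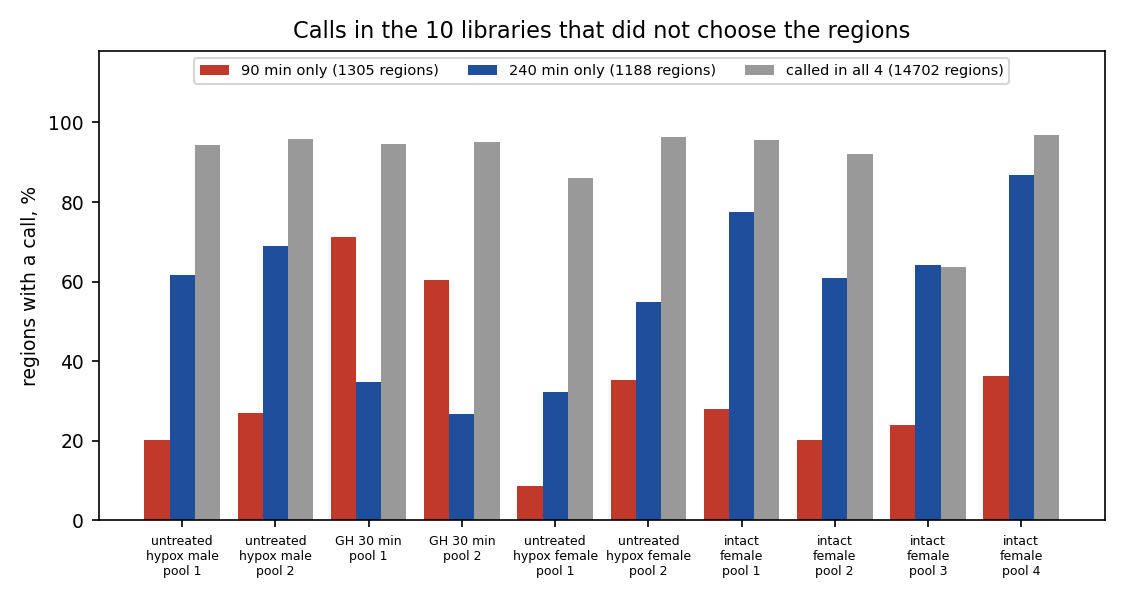
Share of regions with a call (y axis, %) in each of the 10 libraries that were not used to define the classes. Bars stand for the 1305 regions called at 90 min only, the 1188 called at 240 min only and the 14702 called in all 4. The first class is above the second in both 30 min pools and below it in each of the other 8 libraries.

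The STAT palindrome marked the 90 min side. It was found within 200 bp at the summit, on either strand, in 474 of the 1305 regions called at 90 min only (36.3%, exact binomial 95% interval 33.7 to 39%). It was found in 42 of the 1188 called at 240 min only (3.54%, 2.56 to 4.75%). The 90 min-only share was 22.3% without 240 min pool 1, 23.6% without 90 min pool 2, 28.2% without 90 min pool 1 and 35.9% without 240 min pool 2. The share was 8.99% in the 14702 regions called in all 4 and 10.1% in all 33029 regions. Variants of the palindrome with a gap of 2 or 4 bases in place of 3 were in 8.89% and 10.6% of the 90 min-only regions and in 5.74% and 5.26% of all regions. These intervals cover counting error over regions and not the spread between pools.

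The site sat nearest the summit in the 90 min-only regions. Its median distance from the summit was 30 bp in the 90 min-only regions and 36 bp in the regions called in all 4, and it was 45 bp in the 240 min-only regions. A second palindrome was present in 57 (12%) of the 90 min-only regions that held 1, and in 0 of the 42 in the 240 min-only class. Among 90 min-only regions with the palindrome, 59.1% were called in both 30 min libraries and 86.5% lacked a call in untreated hypox males. Without it these shares were 45.5% and 58.6%.

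The HNF6 core showed the opposite order. It was present in 243 (20.5%) of the 240 min-only regions, in 116 (8.89%) of the 90 min-only regions and in 9.12% of all regions. Outside promoters the shares were 21.9% and 9.57%. The HNF6 shares were computed with all 4 libraries only. Motifs of C/EBP (TTGCNNAA), FOXA (TGTTTAC), AP-1 (TGANTCA) and NF-Y (CCAAT) differed by less than 3 percentage points between the classes outside promoters. The motif of HNF4A (CAAAGTCCA) was in 1.17% of the 90 min-only and 3.1% of the 240 min-only regions there. A match is a stretch of letters, and binding was not measured.

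Regions called in all 4 libraries carried a quantitative difference on top of these calls. In limma, on log2 depth-scaled pileup, 37 of the 14702 regions (0.252%) were higher at 90 min and 15 (0.102%) were higher at 240 min at an adjusted p under 0.05. The median difference, 90 min minus 240 min, was -0.14 on the log2 scale, but 0.21 without 240 min pool 1 and -0.45 without 240 min pool 2. The difference was above 0 in 5582 of the 14702 regions, and in 7416 after median scaling. With all 4 libraries the median standard error per region was 0.52. In 1607 regions (10.9%) both 90 min pools lay above both 240 min pools, and in 3325 (22.6%) they lay below both. After each library was centred on its own median the standard error was 0.26 and the median difference was 0.01. Under this median scaling 1084 regions (7.37%) were higher at 90 min and 876 (5.96%) at 240 min, which included all 37 and all 15. The higher-at-90-min share of calls was 71.2% with depth scaling and 55.3% after median scaling.

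A single library moved these counts. With depth scaling, 0 regions passed without 90 min pool 1 and 0 without 90 min pool 2, where limma gave 55 and 126 regions at an unadjusted p under 0.05. There were 1524 higher at 90 min and 163 higher at 240 min without 240 min pool 1, and 504 and 4343 without 240 min pool 2. After median scaling the counts without 1 library ran from 319 to 1410 at 90 min and from 199 to 1050 at 240 min, the lowest of both without 90 min pool 1. In data simulated with the spread of these libraries, the test with depth scaling recovered 0% of changes of 1 log2 unit, 63% of those of 2 and 99.5% of those of 3. Among the unchanged regions it made 0, 8 and 10 false calls. The simulated noise was independent between regions, whereas pool 1 lay above pool 2 at 240 min by a median of 0.72 log2 units. Differences of 1 log2 unit were thus not detectable in this simulation.

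**Figure D3:**
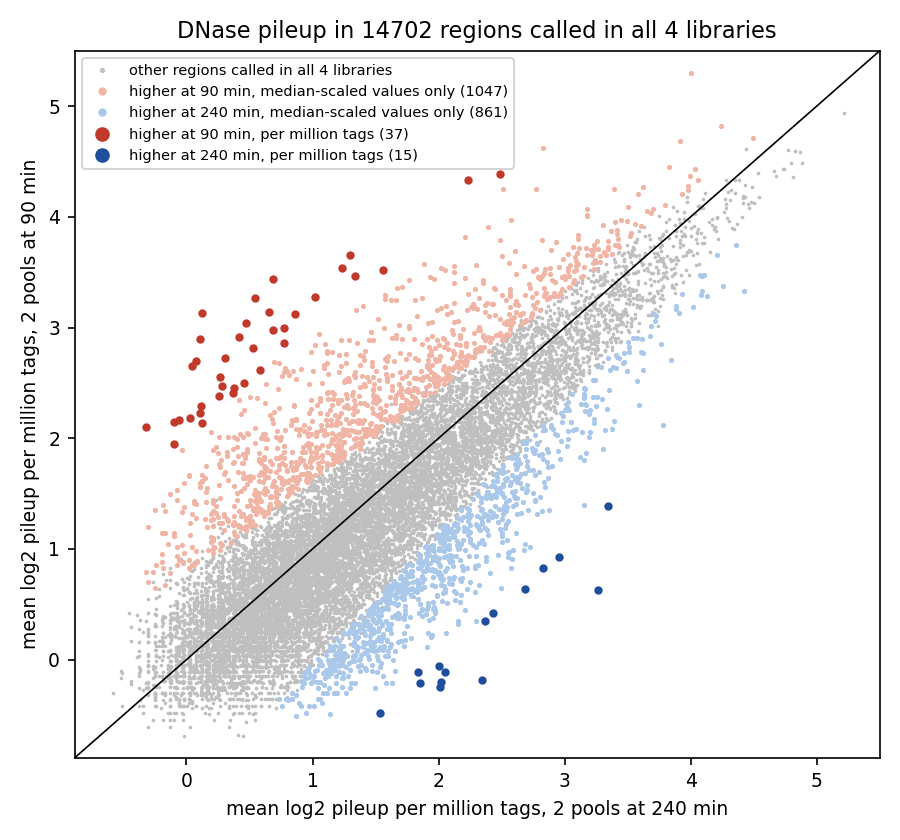
Mean log2 depth-scaled pileup of the 2 pools at 90 min (y axis) against that of the 2 pools at 240 min (x axis) for the 14702 regions called in all 4 libraries. Dark points passed limma with depth scaling (37 and 15 regions) and pale points passed only after median scaling (1047 and 861 regions). The bulk lies slightly below the diagonal of equal values, with a median difference of -0.14 that was 0.21 without 240 min pool 1.

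The largest difference in favour of 90 min was at Cpne8, which encodes a copine, a calcium-dependent phospholipid-binding protein. Its promoter region, chr15:90508816-90509873, had 10.1 and 7.63 at 90 min and 1.09 and 1.09 at 240 min. The 30 min pools had 6.8 and 4.06, and 1 of the 2 untreated hypox male pools had a call, at 0.564. Of the untreated hypox females, which share the code of the GH libraries, pool 1 had no call and pool 2 had 4.44. The groups did not overlap, and the pileup was 8.05-fold higher at 90 min (log2 difference 3.01, SE 0.53, limma adjusted p 0.000254, n = 2 pools a time).

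An intron of Gabbr2, a GABA B receptor subunit, had 8.44 and 11 at 90 min and 1.95 and 1.09 at 240 min (6.59-fold, limma adjusted p 0.000959). The groups did not overlap there, and the 30 min pools had 8.07 and 6.99. Neither untreated hypox male pool had a call there, and the untreated hypox female pools had 0.58 and 4.62. Other regions among the largest differences were 2 introns of 1110059E24Rik and a region 95.8 kb upstream of Bcl6. The Bcl6 region, chr16:24084142-24085033, had 5.18 and 8.1 at 90 min and 1.09 and 1.02 at 240 min (6.14-fold, limma adjusted p 0.00242). It had no call in either untreated hypox male pool, and untreated hypox female pool 1 had 0.725. The Gabbr2 region, both introns of 1110059E24Rik and this Bcl6 region held no STAT palindrome within 200 bp at the summit.

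The 37 regions higher at 90 min were also open at 30 min. Their median depth-scaled pileup was 7.28 and 6.82 in the 90 min pools, 1.45 and 1.23 in the 240 min pools and 6.27 and 4.06 in the 30 min pools. All 37 had calls in both 30 min libraries, as had 91.5% of the regions called in all 4 GH libraries. In untreated hypox males 16 (43.2%) had no call, against 3.03% of the regions called in all 4, and 11 had calls in both pools. In untreated hypox females 7 (18.9%) had no call, against 3% of the regions called in all 4. Female pool 1 called 13 of the 37 (35.1%) and female pool 2 called 29 (78.4%), so many were open without GH there. The STAT palindrome was in 19 of the 37 (51.4%), and 5 were promoters.

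Of the 15 regions higher at 240 min, those with the largest differences are described. Phyh, the peroxisomal enzyme that starts the breakdown of phytanic acid, had 0.64 and 1.2 at its promoter at 90 min and 7.46 and 3.48 at 240 min (5.8-fold, limma adjusted p 0.00318). Nr1i2, which encodes the xenobiotic receptor PXR, had 1.16 and 0.736 in an intron at 90 min and 4.34 and 3.96 at 240 min (4.48-fold, limma adjusted p 0.0208). Both had 240 min pools above 90 min pools without overlap, and both untreated hypox male pools had calls, at 2.12 and 0.92 for Phyh and 2.12 and 1.45 for Nr1i2.

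Krt18, a keratin of hepatocytes and bile duct cells, had a region 1.6 kb from its start at 0.815 and 0.87 at 90 min and 4.42 and 3.68 at 240 min (4.79-fold, limma adjusted p 0.0129). A region 8.3 kb from Cym, the chymosin gene, had 0.873 and 0.87 at 90 min and 5.86 and 2.8 at 240 min (4.65-fold, limma adjusted p 0.014). The largest difference of this direction, 6.24-fold, was 56.1 kb from F730048M01Rik. All 15 regions were called in both untreated hypox male pools and in all 4 intact female pools. For the regions called in all 4 GH libraries these shares were 93% and 60.2%. The HNF6 core was in 7 of them and the STAT palindrome in 1. Leaving out 1 library leaves 1 pool at that time, which is assumed to vary like the pools of the other time. With depth scaling every region named here from this test lost its call without 90 min pool 1 and again without 90 min pool 2 (limma adjusted p 1 for Cpne8, log2 2.81, SE 1.05 without pool 1), and kept its direction. The calls stood without either 240 min pool, where the 90 min pools supply the spread (SE 0.27 for Cpne8 without 240 min pool 1), and after median scaling without any 1 library.

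Across all 14702 regions the STAT share followed the difference. When regions were ranked by their difference and divided into 10 equal groups, the palindrome was in 2.86% of the group highest at 240 min and in 30.1% of the group highest at 90 min. The shares of the groups between were 4.22% to 12%. Outside promoters these end groups had 2.92% and 34.5%, while the variants with 2 and 4 bases in the gap had 4.06% and 2.51% in the group highest at 240 min and 8% and 10.2% in that highest at 90 min. The HNF6 core was in 19.8% of the distal regions highest at 240 min and in 11.1% of those highest at 90 min. Regions with the palindrome had a median difference of 0.20 (log2), and those without it -0.17. These ranks use the mean of 2 pools, and shares describe regions, not replicates.

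**Figure D4:**
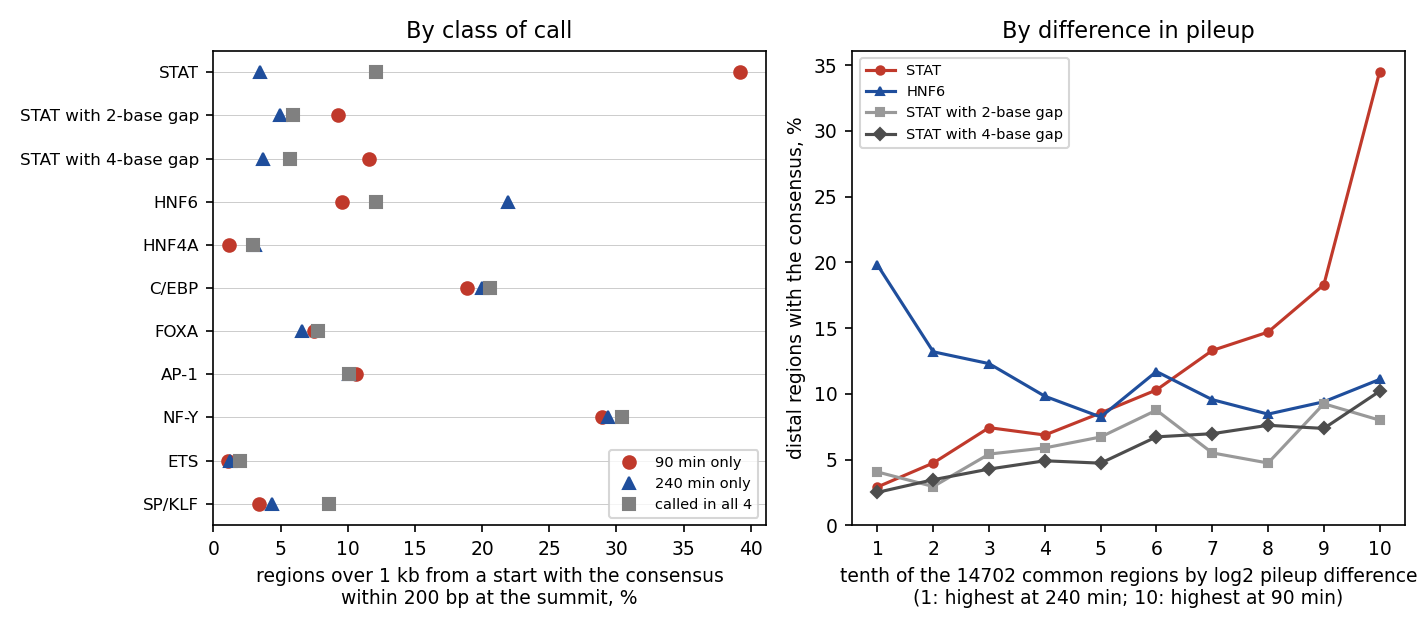
Left, share of regions over 1 kb from a start that hold each consensus within 200 bp at the summit (x axis, %), for 3 classes of call. Right, the share (y axis, %) over 10 equal groups of the 14702 common regions ranked by log2 pileup difference (x axis). The STAT share is 39.2% and 3.49% in the 2 classes on the left and climbs from 2.92% to 34.5% on the right, and the HNF6 share is 9.57% and 21.9% on the left.

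Genes were linked to regions in their body or up to 10 kb upstream. Of 12679 genes with a linked region, 845 (6.66%) had a 90 min-only region and 859 (6.77%) a 240 min-only region, and 113 and 60 genes had 2 or more. The gene lists below were made from general knowledge of liver biology, and each was read against these shares and against the shares of all tested regions given above, including the 5582 of 14702 regions with a difference above 0.

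All 11 direct targets of GH and STAT5 had a linked region. Igf1, Bcl6 and Pim1 had 90 min-only regions, 7 in all, and 0 of the 11 genes had a 240 min-only region. Of the 22 tested regions of these genes, 19 were higher at 90 min in their mean, with a median log2 difference of 0.24 against -0.14 for all regions. In 7 of the 22 both 90 min pools lay above both 240 min pools, and in 0 below. None of the 22 passed limma with depth scaling, where 3 had an unadjusted p under 0.05. After median scaling 9 were higher at 90 min and 0 at 240 min, with 1 to 8 left when a library was left out, the lowest without 90 min pool 1. The palindrome was in 20 of their 41 regions.

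Igf1 encodes insulin-like growth factor 1, the main mediator of GH in body growth. It had 14 regions, of which 4 were 90 min-only and 7 were called in all 4 libraries. The 90 min-only region at 7.6 kb from the start had 2.79 and 2.94 at 90 min and no call in any of the other 12 libraries of the series. That at 43.9 kb had 5.12 and 4.21 at 90 min and 5.07 in 1 of the 2 pools of 30 min, and it holds the 2 STAT palindromes printed above. Those at 14.2 kb and 15.5 kb were lower, at 1.92 and 2.01 and at 1.63 and 1.34, and both were called in both 30 min pools. None of the 4 was called in untreated hypox males.

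Among the Igf1 regions called in all 4 libraries, that at 48.7 kb was the strongest, with 13.4 and 15.1 at 90 min and 17.2 and 10.8 at 240 min. The times overlapped there, and untreated males had 5.91 and 4.78. The region at 57.6 kb had 5.59 and 3.95 at 90 min and 3.04 and 1.43 at 240 min, and that at 8.3 kb had 3.78 and 3.08 against 1.88 and 1.36. Both showed 90 min above 240 min without overlap. Neither passed limma with depth scaling (log2 1.17, adjusted p 0.544, and log2 1.09, adjusted p 0.613), and both passed after median scaling (limma adjusted p 0.00113 and 0.00273).

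Bcl6 encodes a transcriptional repressor that competes with STAT5 for sites in male mouse liver. Its intronic region at 7.5 kb had 6 and 4.15 at 90 min, 7.14 and 4.3 at 30 min and no call at 240 min or in untreated males. The window printed above holds 2 STAT palindromes. A second 90 min-only region lay 7.7 kb upstream, at 2.04 and 1.67. The promoter was called in all 4 libraries at 9.84 and 8.7 against 8.76 and 4.23, and the region at 6.1 kb was called in both 240 min pools, at 3.84 and 2.11, and in 1 of the 2 pools of 90 min, at 2.91.

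**Figure D5:**
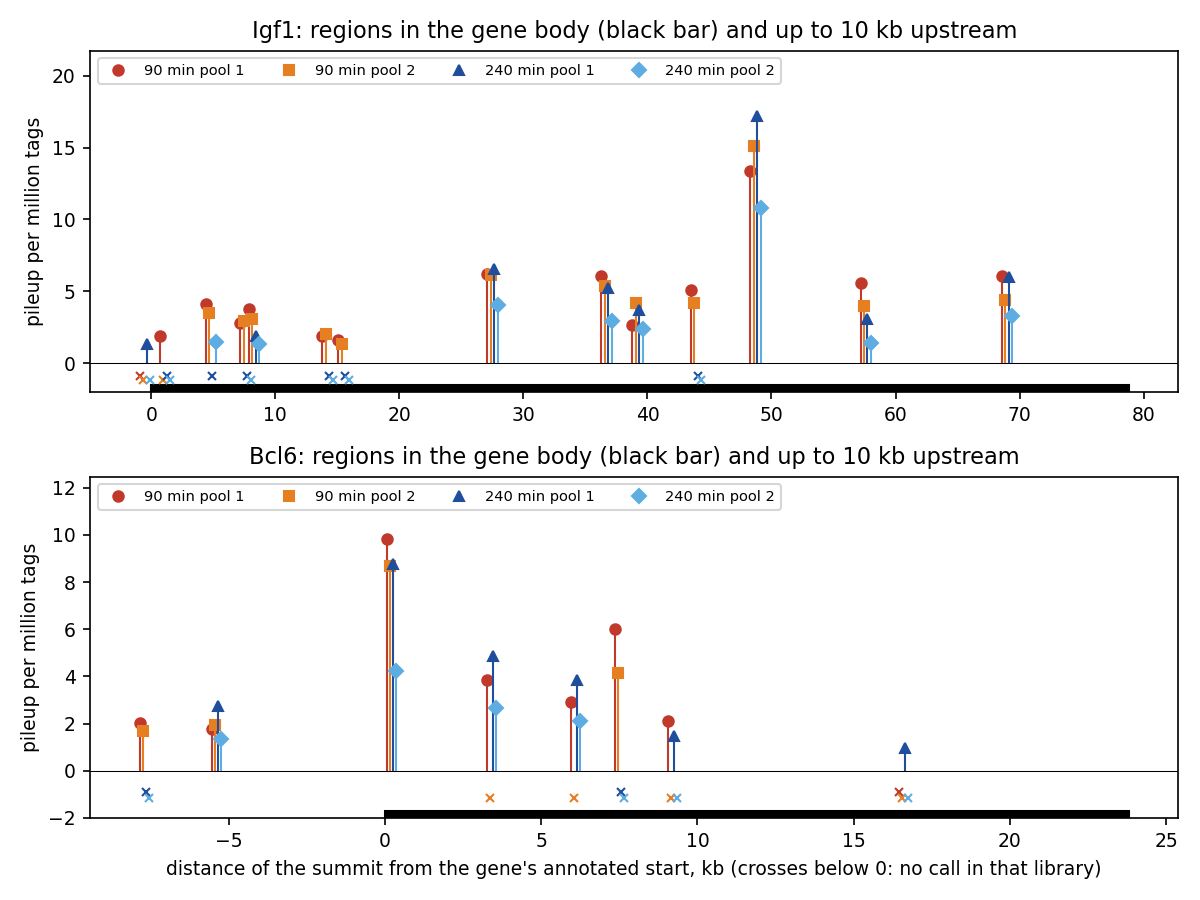
Depth-scaled pileup, per 1000000 tags (y axis) of every region in the body of Igf1 and Bcl6 or up to 10 kb upstream, by distance of the summit from the gene's annotated start (x axis, kb). Each stem is 1 library, and crosses below 0 mark libraries without a call. Crosses of both 240 min pools stand under Igf1 stems of both 90 min pools, at 7.6, 14.2, 15.5 and 43.9 kb, and likewise under Bcl6, at 7.5 kb and at -7.7 kb.

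The feedback inhibitors of GH signalling were open at both times. The promoter of Cish had 16.4 and 15.8 at 90 min and 10.4 and 7.85 at 240 min, against 2.64 and 1.54 in untreated males. The groups did not overlap, and the log2 difference of 0.83 (SE 0.49) missed the threshold with depth scaling (limma adjusted p 0.783) and passed after median scaling (limma adjusted p 0.000248). Socs1 had 4.08 and 3.55 at its promoter at 90 min and 1.95 and 1.5 at 240 min, again without overlap. The limma adjusted p was 0.575 with depth scaling and 0.00165 after median scaling.

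Socs3 had 7.28 and 6.89 at 90 min and 6.37 and 4.16 at 240 min, and the region 0.8 kb from the start of Socs2 had 4.54 and 3.28 against 3.62 and 1.84. The region 9.3 kb upstream of Socs2 had 5.88 and 7.83 against 9.92 and 4.23, and its times overlapped. Both Socs3 and the Socs2 region at 0.8 kb passed limma only after median scaling (adjusted p 0.0259 and 0.0424). The growth-arrest gene Gadd45g had 7.63 and 5.89 against 5.07 and 3.21 (limma adjusted p 0.932 with depth scaling and 0.004 after median scaling).

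Pim1 encodes a kinase induced by STAT factors. A 90 min-only region lay 2.1 kb upstream at 5.71 and 2.81, whereas the Pim1 promoter stood at 8.79 and 9.23 against 13 and 7.71. Promoters of Pim3 (15.3 and 15.1 against 17.4 and 12.3) and Onecut1 (6.35 and 6.89 against 9.19 and 5.93) overlapped between the times. Igfals, which encodes a subunit of the circulating IGF complex, had 8.27 and 6.76 at its promoter against 7.67 and 4.78 and also overlapped.

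All 18 genes of the GH receptor and JAK-STAT list had a linked region, and 3 of them had 90 min-only and 3 had 240 min-only regions. Of 37 tested regions 22 were higher at 90 min in their mean, with a median log2 difference of 0.08, and 0 passed with depth scaling in limma, where 2 and 1 had an unadjusted p under 0.05. After median scaling 4 were higher at 90 min. They included Ptpn1, a phosphatase that acts on JAK2, whose region 6.7 kb from the start had 6.29 and 6.56 against 3.04 and 1.91. They also included a region 2.0 kb from the start of Irs1, an adaptor of insulin and IGF1 receptors, with 11.6 and 11 against 4.34 and 4.37. An intron of Stat3 was called at 90 min only, at 1.22 and 1.14, and an intron of Stat5b at 240 min only, at 1.88 and 1.16. Of 8 genes of the IGF list with a region, Igf1 and Igf1r had 90 min-only regions.

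The 15 immediate-early genes had 0 regions of either class, and their 24 tested regions had a median difference of -0.04, or 0.10 after median scaling. With depth scaling 0 passed limma, with 0 and 1 at an unadjusted p under 0.05. After median scaling 4 were higher at 90 min and 1 at 240 min. The promoter of the growth-factor-response gene Egr1 had 13.1 and 9.7 at 90 min and 9.48 and 5.39 at 240 min. A region near Zfp36, which encodes an mRNA-decay factor, had 5.12 and 3.81 against 10.9 and 5.66. Without 90 min pool 1, 0 of the 24 passed after median scaling.

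The hepatocyte transcription factor list had 3 regions called at 90 min only and 6 called at 240 min only. Of the 45 tested regions of the 18 annotated genes, 6 were higher at 90 min in their mean, with a median log2 difference of -0.30 with depth scaling and -0.15 after median scaling. In 17 both 90 min pools lay below both 240 min pools. The Nr1i2 region passed with depth scaling, and 6 regions passed as higher at 240 min after median scaling, with 3 to 7 when a library was left out. An intron of Nr5a2, which encodes the bile acid regulator LRH-1, had 1.86 and 2.07 against 8.18 and 4.23 (limma adjusted p 0.229 with depth scaling and 0.000299 after median scaling). Prox1, a hepatocyte homeodomain factor, had both a 90 min-only and a 240 min-only intron.

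Genes of gluconeogenesis and glycogen had 3 regions called at 90 min only and 3 at 240 min only, and lipogenesis genes had 4 and 2. Of 26 tested regions of gluconeogenesis and glycogen genes, 5 were higher at 90 min in their mean (median -0.36, or -0.22 after median scaling), and of 25 lipogenesis regions, 4 were (median -0.47, or -0.32). With depth scaling 0 regions of either list passed limma, with 3 each at an unadjusted p under 0.05 and all of them higher at 240 min. After median scaling 6 and 5 were higher at 240 min and 1 and 1 at 90 min. Without 90 min pool 1 these counts at 240 min were 0 and 2.

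Examples show the size. A region in the glucagon receptor gene Gcgr had 0.99 and 1.4 at 90 min and 4.2 and 2.59 at 240 min. An intron of the fatty acid synthase gene Fasn had 1.4 and 1.34 against 6.08 and 2.52. Neither overlapped between times. The glycogen phosphorylase gene Pygl had 2 regions called at 240 min only, and Acaca, which encodes acetyl-CoA carboxylase, had 2 called at 90 min only.

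Circadian clock genes had 48 tested regions, of which 11 were higher at 90 min in their mean (median -0.31, or -0.17 after median scaling). In 18 both 90 min pools lay below both 240 min pools and in 3 above. With depth scaling 0 passed limma, with 1 and 6 at an unadjusted p under 0.05. After median scaling 10 were higher at 240 min and 3 at 90 min, and without 90 min pool 1 these were 1 and 1. An intron of Hlf, a clock-output transcription factor, had 1.75 and 1.27 against 5.5 and 2.87, and an intron of Cry2, a repressor of the clock, had 1.22 and 2.07 against 5.07 and 2.93. Rora, an activator of Arntl, had regions of both directions. Time of day was not given for the pools, and its part in these values was not tested.

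Glucocorticoid-responsive genes were split, with 4 regions higher at each time after median scaling and 0 with depth scaling in limma, where 2 and 1 had an unadjusted p under 0.05. The metallothionein gene Mt1, which shares 2 further regions with the neighbouring Mt2, had 8.68 and 6.29 at its promoter at 90 min and 2.97 and 1.84 at 240 min. Fkbp5, which encodes a chaperone of the glucocorticoid receptor, had a 90 min-only intron at 3.38 and 2.48. The promoter of Per1 was called at 240 min only, at 5.86 and 3.89, and an intron of Zbtb16 had 3.03 and 2.74 against 9.92 and 3.75. Without 90 min pool 1 the counts after median scaling were 2 and 0.

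Hepatocyte secreted and metabolic genes had 33 tested regions with a median difference of -0.09, or 0.06 after median scaling, so the sign of the median depended on the scaling. With depth scaling 0 passed limma, with 1 and 1 at an unadjusted p under 0.05, and after median scaling 8 were higher at 90 min and 2 at 240 min. The fibrinogen genes Fga, Fgb and Fgg, singled out after their values were seen, held 5 of the 8. A region 0.9 kb from a start of Fga, the alpha chain, had 6.64 and 5.35 at 90 min and 1.88 and 1.64 at 240 min. Another, upstream of Fga and 8.4 kb from the start of Fgg, was called at 90 min only at 12.3 and 6.96. An intergenic region 8.1 kb from the start of Fga was not linked under the rule used and is not among the 33. It had 22 and 18.5 at 90 min and 5.57 and 3.96 at 240 min (4.29-fold, limma adjusted p 0.014 with depth scaling). The untreated hypox male pools had 2.87 and 2.49 there, and the untreated hypox female pools had 2.25 and 17.9. Regions of Ttr (transthyretin) and Ass1 (urea cycle) were higher at 240 min after median scaling. Without 90 min pool 1 the counts were 3 and 1.

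Sex-biased genes of the liver had 5 regions called at 1 time only. Among female-biased genes 18 of 24 had a linked region, 0 with a 90 min-only and 3 with a 240 min-only region. Cux2, a female-biased repressor whose sites overlap those of HNF6, had an intron called at 240 min only at 6.01 and 2.18, with an HNF6 core. A second intron of Cux2 had 0.873 and 0.803 at 90 min and 3.76 and 2.11 at 240 min (log2 -1.75, SE 0.49, limma adjusted p 0.0844 with depth scaling and 0.000912 after median scaling). In the other direction an intron of Fmo2, a flavin monooxygenase, had 9.32 and 9.7 against 3.33 and 3 (limma adjusted p 0.2, and 2.85e-05 after median scaling).

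Over all 20 tested regions of female-biased genes, limma called 0 with depth scaling, with 3 and 3 at an unadjusted p under 0.05, and 4 in each direction after median scaling. Without 90 min pool 1 these were 2 at 90 min and 1 at 240 min. Among male-biased genes 13 of 19 had a linked region, and Ugt2b38 and 1100001G20Rik had 90 min-only regions at 1 to 1.63. Of their 14 tested regions 0 passed with depth scaling, with 0 at an unadjusted p under 0.05, and 1 near Gstp1 was higher at 240 min after median scaling, a call lost without either 90 min pool or 240 min pool 2. Ugt2b38, Gstp1 and the Cyp genes belong to families of near-identical copies, and their assignment is uncertain.

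Few regions of the remaining lists passed. Fatty acid oxidation genes had 16 tested regions (median -0.35, or -0.21 after median scaling), of which 0 passed limma with depth scaling and 1, in Cpt1a, passed after median scaling, a call lost without 90 min pool 1 or 240 min pool 1. The 13 regions of ubiquitous genes had a median of 0.03, or 0.17 after median scaling, with 0 passing with depth scaling and 1 (Actb) after median scaling, which was lost when any 1 library was left out. Both lists had 0 regions at an unadjusted p under 0.05. Of 6 endothelial regions 0 passed under either scaling, and Stab2 had a 240 min-only intron at 0.941 and 0.887. The cholangiocyte gene Spp1 had a 90 min-only promoter region at 3.09 and 2.01, and stellate cell genes had 0 regions called in all 4 libraries.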

How the data were processed

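DNase-seq peaks of 14 liver libraries were available as 1 list per library, of which the 4 lists of 90 min and 240 min after GH were compared. The submitters' processing notes name Bowtie2 and the mm9 build. Within each library the authors called peaks with MACS2 2.1.0.20150731 without a control, with all duplicates kept, tags of 40 bp shifted by -100 and extended to 200 bp, and a q cutoff of 0.05, per the file headers. The deposited signal is the pileup, the number of extended tags at the summit, which is not a count over a fixed region and not scaled to depth. The deposited −log10 p and fold (a ratio over local background) are the authors' values within 1 library. The authors' lists pooled over libraries were not used.

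Peaks were merged at 1 bp overlap, and 7 mitochondrial regions were left out. Where a region held several peaks of a library the largest pileup was taken, and given per 1000000 tags of the library (depth-scaled pileup). Regions called in all 4 libraries were tested with limma 3.58.1 in R 4.3.3 on log2 values without a pseudocount, two-sided, with Benjamini-Hochberg adjustment over all 14702 regions and a threshold of 0.05. On simulated data the test recovered the shares given in the results. Values scaled to each library's median were an alternative. Sequence came from the mm9 genome (NCBIM37) with pyfaidx 0.9.0.4 and samtools 1.23.1, and genes from GENCODE of that build. A promoter was 1000 bp on either side of a start, genes were linked by body or 10 kb upstream, and 14 motifs were searched in 200 bp around the summit. The other alternatives were a stricter peak threshold, lists of equal length, a larger overlap, quantile scaling, a pseudocount, a filter on low pileup, other windows, a replicate block and leaving out each library. Replicates are separate pools of livers.

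The named regions were the 8 of highest fold in each class, the 6 of largest limma difference in each direction, all regions of the direct targets, and at most 4 genes of each other list. A few items that these rules would name are not reported here. The members, the 19 gene lists and the tests were chosen with earlier results of these data known. Of the listed genes, Cebpd had no annotated name and Wfdc21 was matched as 1100001G20Rik.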

Additional observations from a re-analysis of the deposited data

How the results depend on the processing

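The 90 min-only and 240 min-only counts stayed within 1.5 times of the main counts with the stricter threshold, lists of equal length and the 100 bp overlap. Leaving out 1 library gave 1471 to 4094 and 1638 to 6361 regions. The STAT share of 90 min-only and 240 min-only regions was 24.5% and 1.77% in 100 bp and 43.1% and 5.47% in 300 bp. For the 90 min-only regions it was 39.2% beyond 1000 bp from a start, 33.2% with lists of equal length and 22.3% to 35.9% without 1 library. The share called in both 30 min pools and in no untreated male pool was 42.6% with the stricter threshold and 16.1% to 35.5% without 1 library. The share with the reverse pattern was 14.1% and 15.1% to 19.5%. The limma counts at 90 min and 240 min, 37 and 15 with depth scaling, were 1084 and 876 after median scaling, 850 and 819 after quantile scaling and 22 and 5 with a pseudocount of 1. They were 121 and 75 with the 30 min pools in the fit, and 6 at 240 min with a mean pileup of at least 40. Without 1 library they ran from 0 to 1524 and from 0 to 4343, and the median difference from -0.45 to 0.21. After median scaling they were 319 and 199 without 90 min pool 1, 857 and 772 without 90 min pool 2, 869 and 594 without 240 min pool 1, and 1410 and 1050 without 240 min pool 2. Median scaling with a library left out or a block, the STAT share in distal regions, and the alternatives of the other-library shares were chosen after seeing the data. The cause of these shifts was not tested.

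With a replicate block on the pool number the limma counts were 67 and 37 with depth scaling and 1147 and 904 after median scaling. Over regions called in all 4 libraries the differences between pools 1 and 2 correlated at -0.07 between the times. Pool 1 lay above pool 2 by a median of 0.12 log2 units at 90 min and 0.72 at 240 min. The correlation cannot decide whether the numbers pair the pools, since a shift of all regions together does not enter it.

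The direction of the following differences reversed without 1 library, with these ranges on the log2 scale. The Igf1 regions at 27.5, 39.2, 48.7 and 69.0 kb ranged from -0.08 to 0.61, -0.15 to 0.51, -0.28 to 0.39 and -0.22 to 0.66. The Socs2 promoter ranged from -0.18 to 0.44 and its upstream region from -0.55 to 0.68, and Igfals from -0.04 to 0.65. Pim1 ranged from -0.53 to 0.22, Pim3 from -0.32 to 0.57 and from -0.19 to 0.30, and Onecut1 from -0.38 to 0.61 and from -0.48 to 0.16. The Bcl6 region at -5.4 kb, -0.07 with depth scaling, was 0.07 after median scaling, 0.10 after quantile scaling, 0.07 with scaling and a block, and -0.58 to 0.43 without 1 library. After median scaling with 1 library left out, directions also reversed for Igf1 at 39.2 kb (-0.06), the upstream Socs2 region (-0.05 and -0.06), Bcl6 (0.21 and 0.18), Pim1 (0.09) and Onecut1 (0.11 and 0.01).

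With 2 pools a time, pooled livers and lists that hold only called peaks, a region just under the threshold in 1 library counts as uncalled. The lowest pileup of a call was 7 to 8 tags. Intervals cover counting error only.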
